A study of Mus musculus with 12 samples.

Results

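The NK lineage receptors and Ly49 family genes described here are Ncr1, Klrb1c, Klre1, Klri2, Klra4, Klra8, Klrk1, Klrc1, Klrd1 and Eomes. The 10 genes were taken as listed, and their levels were read in natural killer (NK) cells and in 5 T cell subtypes of each tumour. The gene tables of the leukocyte libraries held 18574 genes and 8 of the 10 members. Klrb1c and Klra4 were not analysed there. The tables of the whole-tumour libraries held 19369 genes and 9 members, all except Klra4. Of 53990 cells of the leukocyte libraries kept after doublet removal, 505 were annotated as NK cells.

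The samples were 6 tumours of 4T1, a mammary carcinoma line of BALB/c origin, grown in the mammary fat pad of female BALB/c mice aged 9 to 11 weeks. Tumours E, EM1, EM2, EM3 and M each grew from a clone that began as 1 cell, chosen to span epithelial, intermediate and mesenchymal states, and the sixth tumour grew from the parental 4T1 line. Each tumour gave a CD45 library, enriched for leukocytes with magnetic beads, and a Total library of the dissociated tumour. Every group held 1 tumour, of 1 clone or of the parental line, and tumours are therefore compared with counting error only, without a test. The labels give no treatment or engineered allele for any group.

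NK cells kill target cells without antigen-specific receptors, and their activity is set by the balance of activating and inhibitory surface receptors. Ncr1 encodes NKp46, an activating receptor used to define NK cells in mice, and Klrk1 encodes NKG2D, an activating receptor for stress-induced ligands. Klrd1 (CD94) pairs with Klrc1 (NKG2A) in an inhibitory receptor for the non-classical MHC molecule Qa-1. Klre1 and Klri2 encode lectin-like receptors that act as partners on NK cells. Klra4 (Ly49D) and Klra8 (Ly49H) are activating members of the Ly49 family, Klrb1c encodes NK1.1, and Eomes is a T-box transcription factor of NK cell and CD8 T cell maturation. Ly49 gene content and NK1.1 alleles are known to differ between BALB/c and the C57BL/6 strain of the reference genome, with Ly49D and Ly49H known from C57BL/6.

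Of the members, 8 lie in the NK gene complex on chromosome 6 of GRCm38.p6, the assembly also called mm10, between positions 128778485 and 130129898. Ncr1 lies on chromosome 7 (4337715 to 4345184) and Eomes on chromosome 9 (118478186 to 118486132). Levels are given as CPM, the UMIs of a gene per 1000000 UMIs of the same class of cells in a tumour, where a UMI marks 1 captured RNA molecule. CPM is not scaled by transcript length, so levels are compared between classes and tumours and never between genes.

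The CD45 libraries held 28083101 to 57116299 UMIs each. In the tumour order E, EM1, EM2, EM3, M and parental, which is kept below wherever 6 values stand together, NK cells numbered 87, 132, 131, 68, 49 and 38. The T subtypes, named by the authors, held 1882 Gzmb+ Cd8+ T cells, 962 Lef1+ Cd8+ T cells, 1898 Cd44+ Cd4+ T cells, 3354 Cd44- Cd4+ T cells and 1267 Foxp3+ Cd4+ T cells. The parental tumour had 8 Gzmb+ Cd8+ T cells, and mean differences and member counts that rest on this subtype are also given without that tumour. Among 66 pairs of libraries, 14 shared 12.19% to 19.09% of droplet barcodes of the smaller library under different sample tags. By this sharing E was grouped with EM3 and EM1 with EM2, and M and the parental tumour were each grouped with their own other library alone. Full cell barcodes were shared by at most 1.887% of the smaller library in any pair.

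The NK label was checked against marker genes. The 9 measured NK markers summed to 4690 to 11227 CPM in NK cells, and none was at 0 in any tumour. Ncr1, Klre1, Klrk1, Klrd1 and Eomes are among these markers, so the sum is not a check apart from the members. In Gzmb+ Cd8+ T cells the sum was 2229 to 5419 CPM, which overlapped with NK cells. Of the markers that are not members, Tyrobp, the adaptor of activating NK receptors, was at 1126 to 1908 CPM in NK cells. It was at 174 to 265 CPM in Gzmb+ Cd8+ T cells and 1281 to 1789 CPM in dendritic cells. Gzma, a granzyme, was at 847 to 4403 CPM in NK cells and 63.1 to 322 CPM in Gzmb+ Cd8+ T cells. Prf1 (145 to 815 against 47.4 to 485 CPM) and Nkg7 (1033 to 1801 against 1053 to 2940 CPM) overlapped between these classes. The median of Nkg7 was higher in the T cells (2485 against 1658 CPM). The 11 T cell markers summed to 1526 to 2148 CPM in NK cells against 5461 to 11365 CPM over the 5 T subtypes, and none was at 0 in all 6 tumours. Cd8a had no UMI in NK cells of 4 tumours, Cd8b1 in 3, Cd4 and Cd6 in 2 each and Cd5 in 1. Trbc1, a T cell receptor beta constant gene, was at 1089 to 1437 CPM, Cd3e at 26.0 to 168 CPM and Trac at 32.5 to 168 CPM in NK cells. Trdc, the delta chain constant gene, was at 120 to 351 CPM, and the 4 gamma delta T markers summed to 172 to 486 CPM. The authors' deposited reference labels called 253 of the 505 cells (50.1%) ILC and 229 (45.3%) NK cells. Macrophage markers (7 genes) summed to 1570 to 4258 CPM in NK cells and 1679 to 3148 CPM in Gzmb+ Cd8+ T cells, and granulocyte markers (6 genes) to 1133 to 4388 and 916 to 1736 CPM. Their part, and that of T cell receptor transcripts, in the results below was not tested.

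Ncr1 was at or near 0 in the 5 T subtypes and well detected in NK cells. Its 6 NK values were 150, 201, 243, 122, 186 and 172 CPM. No UMI of Ncr1 was found in Gzmb+ Cd8+ T, Cd44+ Cd4+ T or Cd44- Cd4+ T cells of any tumour, 2 UMIs were found in Foxp3+ Cd4+ T cells and 9 in Lef1+ Cd8+ T cells, whose highest tumour reached 8.62 CPM. NK cells did not overlap with any of the 5 T subtypes in this gene. Taken over all 6 tumours, the level was 180 CPM in NK cells (95% Poisson interval 152 to 213). With this point value set against the 3 UMIs that a count of 0 allows over a whole subtype, it was at least 204-fold higher than in Gzmb+ Cd8+ T cells, at least 157-fold higher than in Cd44+ Cd4+ T cells and at least 218-fold higher than in Cd44- Cd4+ T cells. B cells had no Ncr1 UMI, and granulocytes reached 0.740 CPM. Outside these classes, Mki67+ Cd8/Cd4 T cells reached 17.9 CPM in M, from 13 cells with 55785 UMIs of all genes. Cells that the authors called a T/Myeloid Hybrid reached 33.4 CPM in EM1, from 64 cells.

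Eomes was also highest in NK cells, yet it was present in both Cd8+ subtypes. Its 6 NK values were 1083, 1786, 1440, 810, 630 and 875 CPM. In Gzmb+ Cd8+ T cells it ranged from 37.9 CPM in M to 324 CPM in the 8 cells of the parental tumour (224 CPM without it), with a median of 217 CPM, and in Lef1+ Cd8+ T cells from 67.7 to 221 CPM. Every NK value lay above every T value. The difference of log2(CPM + 10), NK minus T within a tumour, was 2.56 ± 0.78 (SD, n = 6) for Gzmb+ Cd8+ T cells, or 2.79 ± 0.60 (SD, n = 5) without the parental tumour, and 3.01 ± 0.27 (SD, n = 6) for Lef1+ Cd8+ T cells. Against Cd44+ Cd4+ T and Foxp3+ Cd4+ T cells, where Eomes was at 0 in 1 tumour each, the differences were 5.83 ± 1.26 and 5.93 ± 1.07 (SD, n = 6). In the order of class medians, Mki67+ Cd8/Cd4 T cells came between the Cd8+ subtypes at 128 CPM and overlapped with both.

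Klre1 and Klri2, the partner receptors, were shared by NK cells and Gzmb+ Cd8+ T cells. Klre1 stood in NK cells at 257, 188, 158, 130, 72.3 and 137 CPM. In Gzmb+ Cd8+ T cells the same tumours gave 163, 118, 22.1, 160, 66.4 and 0 CPM. The 2 classes overlapped, and EM3 was the tumour in which NK cells were the lower class. Klri2 stood in NK cells at 95.7, 149, 224, 45.9, 103 and 137 CPM, and in Gzmb+ Cd8+ T cells at 72.8, 45.8, 41.1, 79.8, 19.0 and 0 CPM. These classes overlapped as well, again with EM3 reversed. The NK minus Gzmb+ Cd8+ T difference was 1.23 ± 1.59 for Klre1 and 1.54 ± 1.58 for Klri2 (log2(CPM + 10), SD, n = 6), so neither exceeded its spread between tumours. Without the parental tumour and its 8 cells the means were 0.70 and 1.07.

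Against the other T subtypes both partner receptors separated from NK cells. Klre1 ranged from 16.8 to 41.2 CPM in Lef1+ Cd8+ T cells, below all 6 NK values, with a difference of 2.10 ± 0.81 (log2(CPM + 10), SD, n = 6). Klri2 was at 0 in 3 of 6 tumours in Lef1+ Cd8+ T cells and reached 25.9 CPM in EM2, with a difference of 3.15 ± 0.73 (SD, n = 6). No UMI of Klri2 was found in 1267 Foxp3+ Cd4+ T cells, against 128 CPM over all NK cells, which made it at least 82.7-fold higher in NK cells. Cd44- Cd4+ T cells held 3 UMIs of Klre1 and 1 of Klri2 in 3354 cells.

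The inhibitory pair Klrc1 and Klrd1 and the activating receptor Klrk1 either overlapped between Gzmb+ Cd8+ T cells and NK cells or were higher in the T cells. Klrc1 stood in NK cells at 640, 870, 730, 765, 744 and 755 CPM. Gzmb+ Cd8+ T cells gave 1161, 993, 1144, 916, 920 and 1860 CPM. All 6 T values lay above all 6 NK values, and the NK minus T difference was -0.59 ± 0.43 (log2(CPM + 10), SD, n = 6), or -0.45 without the parental tumour. Klrd1 in NK cells ranged from 189 to 289 CPM with a median of 230, and in Gzmb+ Cd8+ T cells from 228 to 809 CPM with a median of 363. NK cells were lower in 6 of 6 tumours although the ranges overlapped, with a difference of -0.71 ± 0.70 (SD, n = 6), or -0.44 without the parental tumour. Klrk1 in NK cells ranged from 206 CPM in the parental tumour to 444 CPM in M, and in Gzmb+ Cd8+ T cells from 275 CPM in M to 728 CPM in the parental tumour. Its difference of -0.15 ± 0.84 (SD, n = 6) lay within its spread and was 0.17 without the parental tumour.

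In Lef1+ Cd8+ T cells these 3 receptors overlapped with NK cells. The NK minus Lef1+ Cd8+ T difference was 0.27 ± 0.22 for Klrk1, 0.30 ± 0.33 for Klrc1 and 0.38 ± 0.59 for Klrd1 (log2(CPM + 10), SD, n = 6). In Cd4+ subtypes they were lower than in NK cells in every tumour. Klrc1 was at 7.64 to 132 CPM in Cd44+ Cd4+ T cells, 14.9 to 138 CPM in Cd44- Cd4+ T cells and 0 to 50.8 CPM in Foxp3+ Cd4+ T cells. Klrk1 was at 17.6 to 56.7 CPM, 5.59 to 155 CPM and 0 to 15.6 CPM in the same subtypes. In 104 Trdc+ DN T cells Klrk1 had 25 UMIs, with a median of 140 CPM, a range of 0 to 316 CPM and 3 tumours with at least 20 cells, and Ncr1, Klre1, Klri2 and Eomes had no UMI. Dendritic cells also held Klrk1, at 49.7 to 96.9 CPM.

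**Figure D1:**
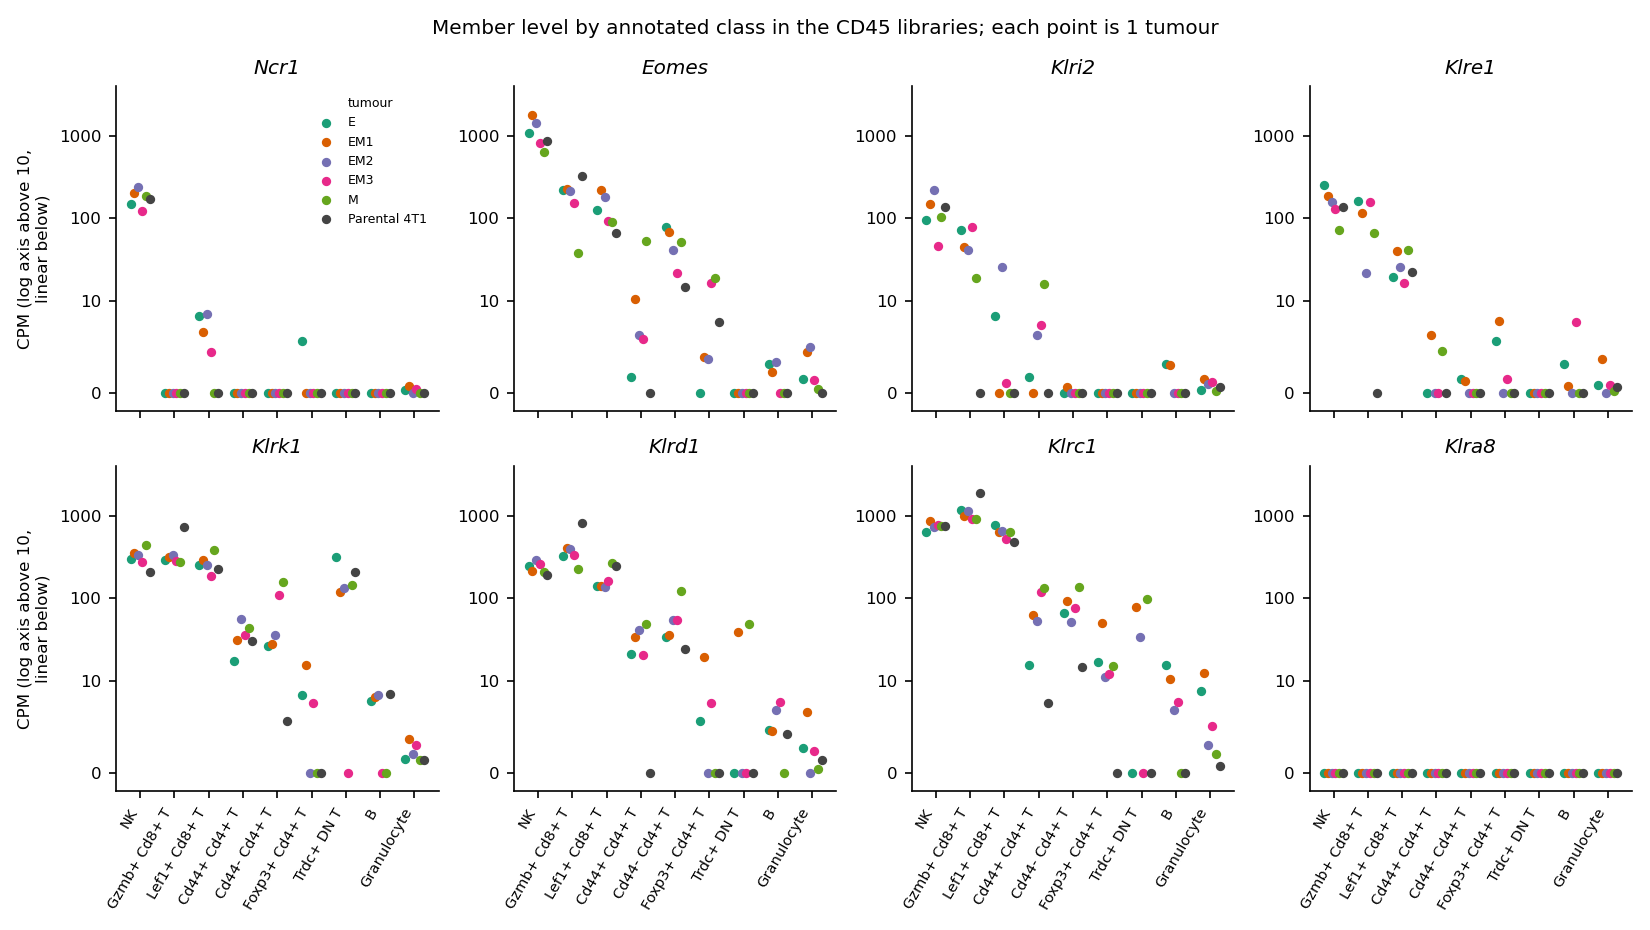
Level of the 8 measured members (CPM, logarithmic above 10 and linear below) in NK cells, 5 T subtypes, Trdc+ DN T cells, B cells and granulocytes of the CD45 libraries, with 1 point for each tumour. Ncr1 lies at 122 to 243 CPM in NK cells and at 0 in Gzmb+ Cd8+ T cells, while Klrc1 is higher in Gzmb+ Cd8+ T cells (916 to 1860 CPM) than in NK cells (640 to 870 CPM).

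Counted over 8 members and 6 tumours, 18 of 48 pairs were at least 2 times higher in NK cells than in Gzmb+ Cd8+ T cells on the CPM + 10 scale, and 3 were at least 2 times lower. Over all genes at 20 CPM or more in either class, 12.8% of gene-by-tumour pairs were higher and 13% lower by that measure. Klra8, at 0 in NK cells and all T subtypes, is counted among the 8 members but did not reach that level. The member counts and the shares of all genes in this paragraph differ in that respect. The 18 pairs were 6 of Ncr1, 6 of Eomes, 4 of Klri2 and 2 of Klre1, and the 3 lower pairs were Klrk1, Klrc1 and Klrd1 in the parental tumour. Without that tumour 14 of 40 pairs were higher and 0 lower, beside 7.33% and 11.2% of all pairs. For Lef1+ Cd8+ T cells 24 of 48 pairs were higher, beside 8.95% of all pairs, and none was lower, beside 12.3%. For Cd44+ Cd4+ T cells the count was 42, beside 8.47%, for Cd44- Cd4+ T cells 41, beside 11.2%, and for Foxp3+ Cd4+ T cells 42, beside 10.7%. No pair was lower in these 3 comparisons, beside 12.3%, 15.1% and 13.3%. The mean member difference was 1.01 ± 0.31 for Gzmb+ Cd8+ T (1.01 without the parental tumour), 1.61 ± 0.13 for Lef1+ Cd8+ T, 3.29 ± 0.52 for Cd44+ Cd4+ T, 3.02 ± 0.45 for Cd44- Cd4+ T and 3.87 ± 0.32 for Foxp3+ Cd4+ T cells (log2(CPM + 10), SD, n = 6 tumours). In all 6 tumours, 2 of the 8 members (Ncr1 and Eomes) were at least 2 times higher in NK cells than in Gzmb+ Cd8+ T cells and none was lower, beside 1.1% and 0.841% of all genes tested. In the 5 tumours other than the parental the same 2 members were higher and none lower, beside 1.4% and 1.33%. Lef1+ Cd8+ T cells gave 3 (Ncr1, Klri2 and Eomes) and 0, beside 0.741% and 0.993%. Cd44+ Cd4+ T cells gave 7 and 0, beside 1.92% and 2.21%, Cd44- Cd4+ T cells 6 and 0, beside 2.56% and 1.84%, and Foxp3+ Cd4+ T cells 7 and 0, beside 2.34% and 3.02%. The median of all genes tested lay between -0.13 and 0.00 in these comparisons. The classes were drawn by the authors from expression of the same cells, so these counts are a description and no test was made.

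**Figure D2:**
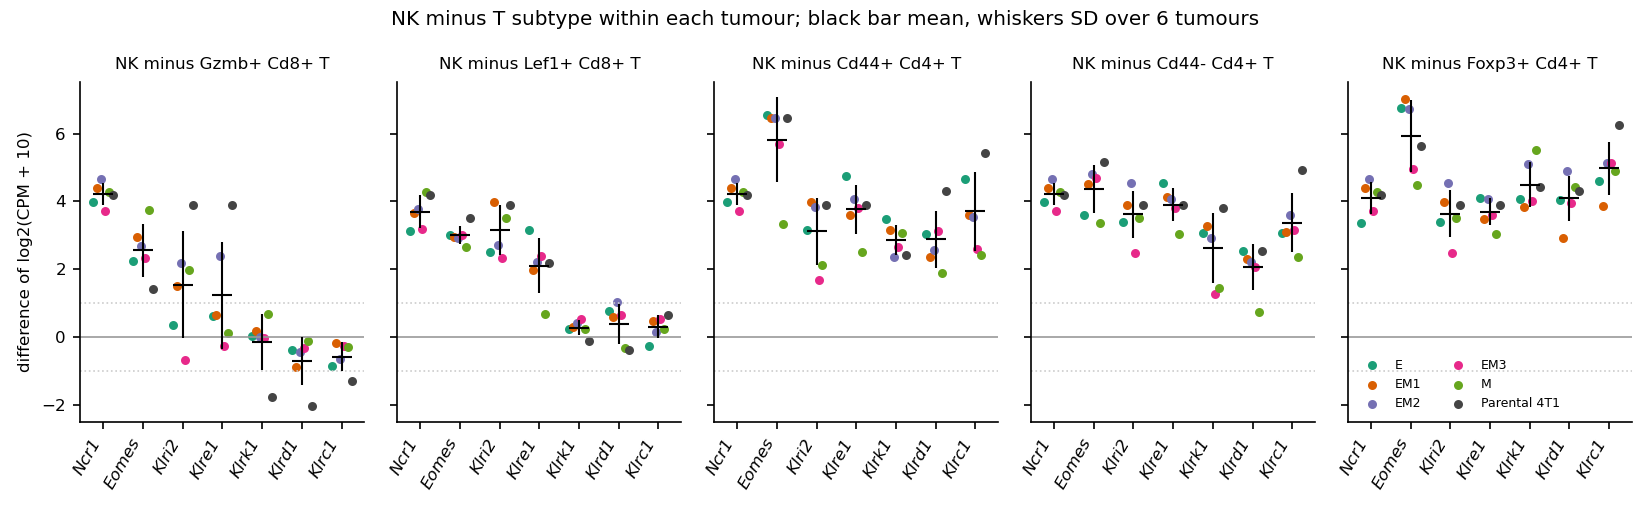
Difference of log2(CPM + 10), NK minus T subtype, within each of 6 tumours (coloured points), with the mean (black bar) and SD (whiskers) for 7 members; dotted lines mark a 2-fold difference. Ncr1 and Eomes lie above the upper line in every panel, whereas Klrk1, Klrd1 and Klrc1 lie around or below 0 against Gzmb+ Cd8+ T cells.

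Klra8 had no UMI in the 505 NK cells or in any T subtype, and 4 UMIs in macrophages of the parental tumour. By a floor of 3 counts, not the exact interval, a count of 0 of 505 allows a share of up to 0.594% of cells with a UMI. In the NK cells of a tumour 3 UMIs would be worth 17.9 to 51.5 CPM. In the Total libraries, 7 UMIs of Klra8 and 3 of Klrb1c were found in 8828 cells of the authors' T/NK class. The labels name a fixed-RNA kit alongside 3′ reagents, and whether the assay detects the BALB/c sequences of these genes was not tested. Genes of the Ly49 family are closely related copies, so reads of a BALB/c gene may be counted to a relative or to none, and that was not tested either. The reference sequence before the start that the promoter table gives for Klra4 and Klra8 is shown for comparison; it does not give the likeness of the transcripts, which was not computed, and the window of Klra4 overlaps the end of its annotated span at 130067301. It was read from RefSeq for GRCm38.p6 (chr6:130067272-130067521 and chr6:130129899-130130148). Over 249 aligned bases without gaps, 212 (85.1%) were the same, and the last 120 of them, nearest the start site, are given here, minus strand, 5′ to 3′, with the 15 differing positions in capitals.
Klra4: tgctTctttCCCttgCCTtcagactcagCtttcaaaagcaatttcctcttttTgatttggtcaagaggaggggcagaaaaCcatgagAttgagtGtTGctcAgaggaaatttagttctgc
Klra8: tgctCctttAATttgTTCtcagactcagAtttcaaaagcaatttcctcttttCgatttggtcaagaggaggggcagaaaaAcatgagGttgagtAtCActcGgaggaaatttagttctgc

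Among the other Ly49 genes, 5 were measured in the CD45 libraries and 3 reached 20 CPM in NK cells or Gzmb+ Cd8+ T cells. Klra3 was at 26.0 to 92.0 CPM in NK cells against at most 13.4 CPM in Lef1+ Cd8+ T cells and 3.27 CPM in Gzmb+ Cd8+ T cells. Against Lef1+ Cd8+ T cells it was at least 2 times higher in 5 of 6 tumours, and in EM1 the intervals of 4 NK UMIs (7.08 to 66.5 CPM) and 2 T UMIs (1.62 to 48.3 CPM) overlapped. No Ly49 gene was at least 2 times higher or lower than in Lef1+ Cd8+ T cells in all 6 tumours. Klra5 and Klra7 were found in both NK cells (32.5 to 62.0 and 10.3 to 77.8 CPM) and Lef1+ Cd8+ T cells (25.3 to 164 and 8.44 to 121 CPM), and the classes overlapped. Klra2 was at 0 to 7.65 CPM in NK cells and stood at 156 to 222 CPM in granulocytes, 68.5 to 150 CPM in macrophages and 62.1 to 176 CPM in Other Myeloid cells. Klra3 and Klra7 were at least 2 times higher in NK cells than in Gzmb+ Cd8+ T cells in all 6 tumours, beside 1.1% of all genes tested. For Klra7 this rested on 1 NK UMI in M (10.3 CPM, 95% Poisson interval 0.262 to 57.6) and 1 in the parental tumour (17.2 CPM, 0.435 to 95.6). For Klra3 it rested there on 4 NK UMIs (interval 11.3 to 106 CPM) and 3 NK UMIs (10.6 to 150 CPM). Gzmb+ Cd8+ T cells of these tumours had no UMI of either gene in 63 and 8 cells, with upper interval ends of 35.0 and 298 CPM, so a difference was not detectable there at this depth. Of the 4 NKR-P1 genes, relatives of Klrb1c, 3 reached 20 CPM in NK cells or Gzmb+ Cd8+ T cells. Klrb1a (32.5 to 105 CPM) and Klrb1b (39.0 to 103 CPM) were at least 2 times higher in NK cells than in Gzmb+ Cd8+ T cells in all 6 tumours, beside 1.1% of all genes tested. This too includes the parental tumour with its 8 Gzmb+ Cd8+ T cells. Klrb1b was not particular to NK cells: dendritic cells held 80.0 to 176 CPM, with a median of 114 CPM against 80.1 CPM in NK cells.

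The partners and targets of the members gave a mixed picture against Gzmb+ Cd8+ T cells. Of 6 adaptors in the tables, 5 reached 20 CPM in either class. Tyrobp and Fcer1g were at least 2 times higher in NK cells in all 6 tumours, beside 1.1% of all genes tested. Fcer1g was at 630 to 957 CPM against 80.9 to 331 CPM. Hcst, the adaptor that carries NKG2D signals, was at 115 to 178 CPM in NK cells and 80.9 to 190 CPM in T cells and overlapped. Of the relatives of CD94 and NKG2, 4 were measured and 3 reached 20 CPM in either class. Klri1, a sister gene of Klri2, was at 26.3 to 197 CPM in NK cells and at most 3.16 CPM in Gzmb+ Cd8+ T cells. Lef1+ Cd8+ T cells held 8.44 to 45.1 CPM of Klri1, and dendritic cells 33.7 to 139 CPM, which overlapped with NK cells. Klri1 and Klrg1 were higher than in Gzmb+ Cd8+ T cells in all 6 tumours, beside the same 1.1%. Klrg1 was not particular to NK cells, where it was at 45.5 to 206 CPM. Foxp3+ Cd4+ T cells held 641 to 1145 CPM, and NK cells were at least 2 times lower there in all 6 tumours, beside 3.02% of all genes tested. Of 17 other NK genes, Itga2, Cd244a, Txk, Clnk, Il18rap and Xcl1 were higher in all 6 and none was lower, beside 1.1% and 0.841%. Xcl1, a chemokine that attracts cross-presenting dendritic cells, was at 455 to 1236 CPM in NK cells and 0 to 237 CPM in Gzmb+ Cd8+ T cells. Of 10 transcription factors, 9 reached 20 CPM in either class, and none of them passed in either direction. Of 7 residency genes shared with ILC1, Cxcr6, a chemokine receptor, was lower in NK cells in all 6 tumours, at 115 to 263 CPM against 948 to 2426 CPM, beside 0.841% of all genes tested. The genes counted here and among the Ly49 and NKR-P1 relatives were also past 2 times in the same direction in the 5 tumours other than the parental by construction, and Klrb1f, Sh2d1b1, Fcgr3 and Slamf7 joined them there, beside 1.4% of all genes tested.

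The likeness of the members across classes was read over 83 sums of class and tumour with at least 20 cells. Pearson's r of log2(CPM + 10) is given as a description, since the sums share libraries and depth. Klrk1 and Klrd1 had the highest r, 0.91, followed by Klre1 and Eomes at 0.88. Ncr1 was least like Klrd1, at 0.42. Among 11159 genes, those closest to the mean of the members were Klrc3 (0.92), Xcl1 (0.92), Dapk2 (0.91), Samd3 (0.90) and Gzma (0.89).

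Promoter sequences are shown for members that differ in this pattern: Ncr1 and Klre1, higher in NK cells than in Lef1+ Cd8+ T cells, and Klrk1 and Klrc1, which overlapped there. RefSeq promoters of GRCm38.p6 matched 8 of the 10 members, and Klri2 and Klrd1 were not matched. The 250 bases before the start that the promoter table gives for each gene are printed 5′ to 3′ on the gene's strand, from the C57BL/6J reference and not from the BALB/c host. Capitals mark 2 motif cores searched on both strands, the T-box core GTGTGA, bound by the family of Eomes and read as TCACAC on the opposite strand, and the RUNX core TGTGGT, read as ACCACA there. The windows of Klre1 and Klrc1 lie inside the annotated RefSeq spans of these genes (129559365 to 129585828 and 129666015 to 129682852), and that of Klrk1 overlaps the end of its gene at 129623903, so they are not upstream of every annotated transcript.
Ncr1 (chr7:4337465-4337714, plus strand): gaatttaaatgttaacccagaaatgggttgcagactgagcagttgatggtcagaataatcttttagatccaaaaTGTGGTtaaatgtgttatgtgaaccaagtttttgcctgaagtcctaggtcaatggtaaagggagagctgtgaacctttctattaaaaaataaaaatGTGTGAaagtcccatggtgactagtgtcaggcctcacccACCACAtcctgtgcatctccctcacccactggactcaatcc
Klre1 (chr6:129577963-129578212, plus strand): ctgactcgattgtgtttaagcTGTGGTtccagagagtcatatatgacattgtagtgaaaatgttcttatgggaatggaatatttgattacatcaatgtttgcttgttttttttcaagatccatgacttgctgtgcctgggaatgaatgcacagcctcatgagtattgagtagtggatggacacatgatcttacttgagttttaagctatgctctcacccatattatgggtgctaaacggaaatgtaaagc
Klrk1 (chr6:129623865-129624114, minus strand): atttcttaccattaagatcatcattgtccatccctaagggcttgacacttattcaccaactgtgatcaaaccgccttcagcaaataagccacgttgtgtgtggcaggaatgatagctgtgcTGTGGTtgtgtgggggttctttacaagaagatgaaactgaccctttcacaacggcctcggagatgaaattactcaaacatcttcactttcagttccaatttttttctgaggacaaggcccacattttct
Klrc1 (chr6:129678974-129679223, minus strand): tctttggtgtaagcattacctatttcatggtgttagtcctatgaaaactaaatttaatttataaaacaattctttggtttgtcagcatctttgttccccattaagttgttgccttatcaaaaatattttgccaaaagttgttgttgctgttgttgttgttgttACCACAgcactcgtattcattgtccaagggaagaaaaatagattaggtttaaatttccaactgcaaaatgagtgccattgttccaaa
The RUNX core was in 5 of the 8 member windows, and in 14.0% of 32851 promoter windows of that length. The T-box core was in 1 of the 8, that of Ncr1, and in 12.3% of all windows. Of the 4 printed, Ncr1 held the RUNX core 2 times and the others held it 1 time each. The window of Eomes, also higher in NK cells, held neither core and is not printed. A match is a run of letters, not a measured binding site.

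The share of NK cells with a UMI was read in cells thinned to 1000 UMIs, with 142 shallower NK cells left out of 505. Eomes was found in 53.4% of 363 NK cells (exact Clopper-Pearson interval 48.2% to 58.7%), Klrc1 in 45.2% (40.0% to 50.5%), Klrk1 in 25.3% (20.9% to 30.1%) and Klrd1 in 20.7% (16.6% to 25.2%). Ncr1 was found in 14.9% (11.4% to 19.0%), Klre1 in 12.1% (8.95% to 15.9%) and Klri2 in 8.26% (5.65% to 11.6%). Without thinning, at a median of 1297 UMIs per NK cell, Eomes was found in 60.4% and Ncr1 in 20%. Free RNA gives a background that was read in classes that should lack the genes: thinned B cells (median 1396.5 UMIs before thinning) gave at most 1.01% for any member and granulocytes (median 1381 UMIs) at most 0.449%, while the thinned NK cells had a median of 1582 UMIs.

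In Gzmb+ Cd8+ T cells thinned alike (1511 cells with a median of 1798 UMIs, 371 left out), Klrc1 was found in 59.4% (56.8% to 61.9%) and Klrd1 in 28.7% (26.4% to 31.0%), both above the NK intervals. These intervals pool the cells of 6 tumours and cover counting error only, not the spread between tumours. The mix of tumours also differed. Before thinning, E and EM1 gave 560 and 688 of 1882 Gzmb+ Cd8+ T cells and 87 and 132 of 505 NK cells. Klre1 was found in 12.5% (10.9% to 14.3%) and Klrk1 in 24.9% (22.7% to 27.1%), inside the NK intervals. Eomes was in 15.6% (13.8% to 17.5%) and Klri2 in 5.43% (4.34% to 6.69%), and Ncr1 was in 0 of 1511 cells, which allows a share of up to 0.199%. Unthinned, 73.5% of NK cells held a UMI of Ncr1, Klre1, Klri2 or Eomes, against 40.1% of Gzmb+ Cd8+ T and 16.9% of Lef1+ Cd8+ T cells, at median depths of 1297, 1578.5 and 1650 UMIs. These genes are the members whose mean level was higher in NK cells than in Gzmb+ Cd8+ T cells, and Klrk1, Klrc1 and Klrd1 were left out. The direction of this contrast therefore follows from the choice of genes. None of the 8 members was found in 6.14% of NK cells.

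Across tumours, the counting intervals of the highest and lowest tumour were apart for Eomes, Klre1 and Klri2 in NK cells. The share of all genes with such a gap was not computed, so these gaps do not set the members apart from other genes. Eomes was highest in EM1 (1786 CPM, interval 1581 to 2010) and lowest in M (630 CPM, interval 482 to 809), a ratio of 2.83. Klre1 was highest in E (257 CPM, 186 to 346) and lowest in M (72.3 CPM, 29.1 to 149), a ratio of 3.56. Klri2 was highest in EM2 (224 CPM, 155 to 312) and lowest in EM3 (45.9 CPM, 16.8 to 99.8), a ratio of 4.87. For Ncr1, Klrk1, Klrc1 and Klrd1 the intervals of the highest and lowest tumour overlapped, with ratios of 1.99, 2.16, 1.36 and 1.53. On the CPM + 10 scale 4 of the 7 detected members had a ratio of at least 2 between the highest and lowest tumour, beside 64.8% of all genes tested in NK cells. With 1 tumour per clone or line, clone and mouse cannot be told apart, and M and E were not grouped by droplet barcodes, so clone and library group cannot be told apart between them. Between M and E, Klre1 alone was at least 2 times lower in M, beside 8.3% of all genes, and no member was higher, beside 11.6%. No member differed by 2 times between EM3 and E, beside 8.7% higher and 6.74% lower in EM3, or between EM1 and EM2, beside 6.46% higher and 6.89% lower in EM1.

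T cell transcripts were lowest where Eomes was highest in NK cells. The CPM of Cd3e, Cd3d, Cd3g and Trac summed to 110 in EM1 and 171 in EM2, where Eomes was highest, and to 393 in M and 512 in EM3, where it was lowest, while E (335) and the parental tumour (240) lay between. S100a9, a granulocyte gene, was at 652, 629.9, 565, 2599, 1488 and 584 CPM in NK cells, and S100a8 at 699.9, 662, 519, 1544, 1209 and 463 CPM, both highest in EM3 and M. The part of T cell and granulocyte transcripts in the Eomes levels was not tested. The mean log2(CPM + 10) of the 8 members in NK cells was 7.64, 7.86, 7.91, 7.35, 7.45 and 7.50, highest in EM2 and lowest in EM3. The M minus E difference was -0.19 (95% counting interval -0.44 to 0.06) and changed sign to 0.17 with NK cells taken from the finer annotation column. The EM3 minus E difference, between tumours that shared droplet barcodes, was -0.29 (-0.53 to -0.05), and EM1 minus EM2 was -0.04 (-0.23 to 0.15).

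**Figure D3:**
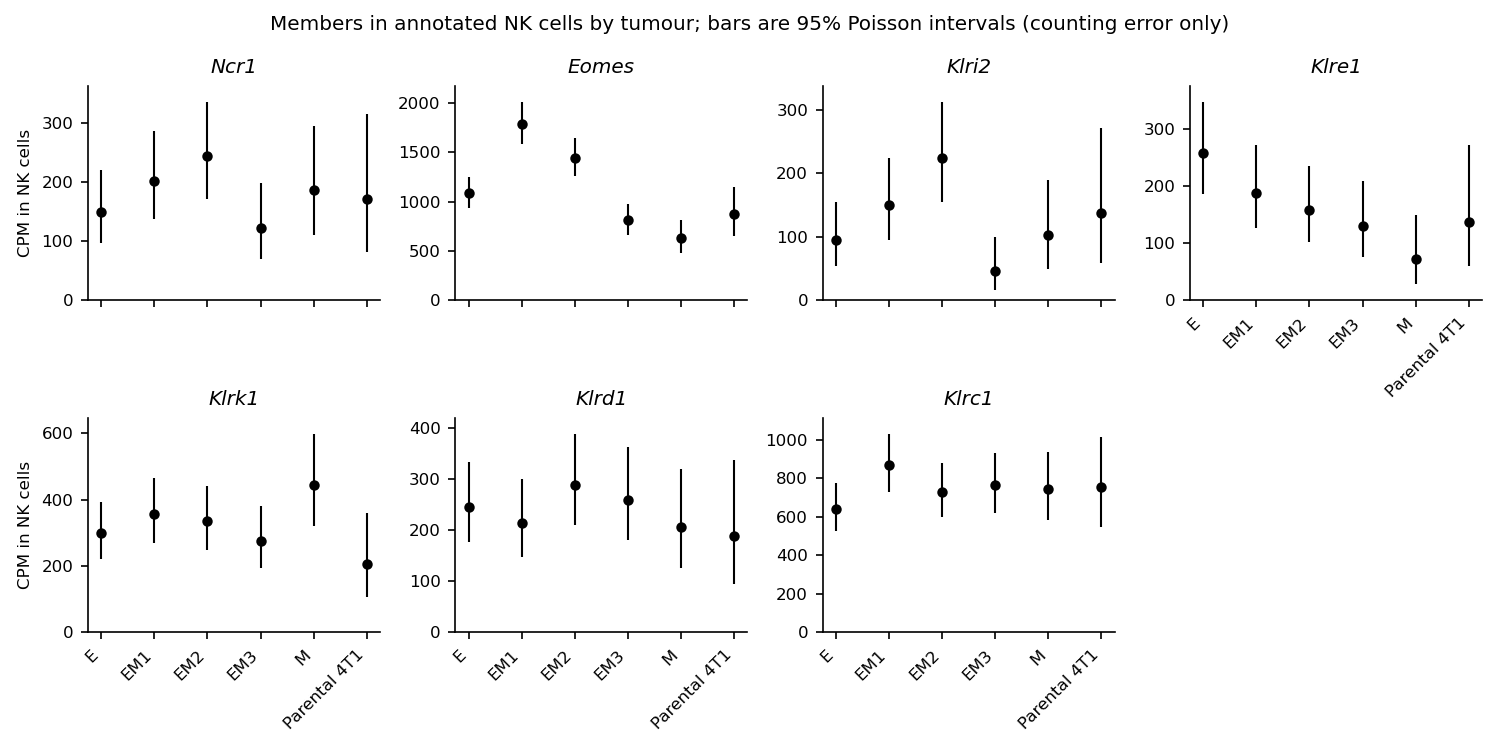
CPM of 7 members in annotated NK cells of each tumour, with 95% Poisson intervals that cover counting error only and axes that start at 0. Eomes falls from 1786 CPM in EM1 to 630 CPM in M with intervals that do not overlap, whereas the intervals of the highest and lowest tumour overlap for Klrc1.

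The finer annotation column named 317 more cells NK that the broader column called Other Myeloid, and the members divided in them. Klrk1 was at 171 to 450 CPM and Klrd1 at 156 to 524 CPM in these cells, overlapping with NK cells, with differences from NK cells of -0.30 ± 0.44 and 0.11 ± 0.71 (log2(CPM + 10), SD, n = 6 tumours). The upper ends came from M, which held 14 of these cells. Without M the highest values were 316 and 252 CPM and the differences -0.36 ± 0.46 and -0.13 ± 0.44 (SD, n = 5), so that of Klrd1 changed sign. Ncr1, Klre1 and Klri2 had no UMI in them. Klrc1 was at 0 to 15.7 CPM and Eomes at 0 to 20.9 CPM. In all 6 tumours, 5 of the 8 members were at least 2 times lower than in NK cells and none was higher, beside 5.23% and 5.84% of all genes tested. The leading genes of these cells were Siglech (3053 to 3566 CPM, against at most 26.0 CPM in NK cells), Spib and Klk1. Siglech and Spib are best known from plasmacytoid dendritic cells, and the authors' deposited reference labels called 241 of the 317 (76.0%) DC. The data thus went against the NK name of the finer column for these cells, and they were kept out of the NK class. Klra17, a further Ly49 gene, was at 74.3 to 136 CPM in them and at 0 in NK cells.

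**Figure D4:**
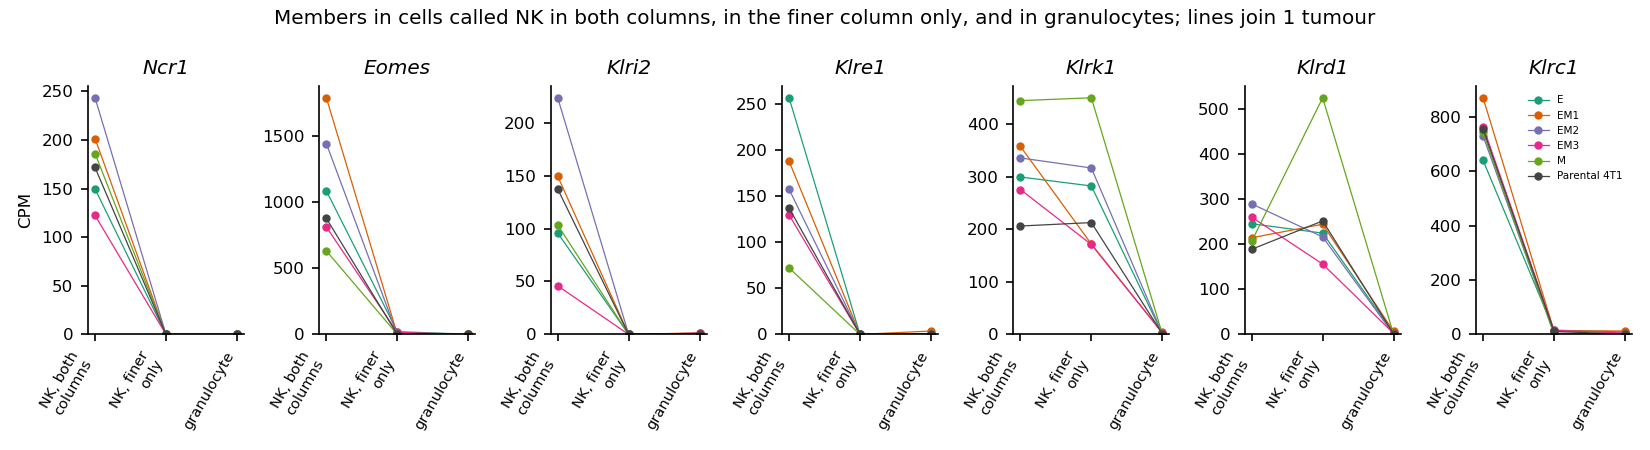
CPM of 7 members in cells called NK in both annotation columns, in cells called NK in the finer column only, and in granulocytes; each line joins the values of 1 tumour and axes start at 0. Klrk1 and Klrd1 lie at 171 to 450 and 156 to 524 CPM in the cells of the finer column only, with the upper ends from the 14 cells of M, and the other 5 members are at most at 20.9 CPM there.

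The Total libraries held the members in other cells of the same tumours, under an authors' class T/NK that does not separate NK from T cells. To read the members there, T/NK cells without a UMI of Cd3e, Cd3d, Cd3g, Trac, Trbc1 and Trbc2 (454 cells) were compared with T/NK cells holding 2 or more (7795 cells), paired by tumour. This comparison was chosen after seeing the data, and the 6 genes of the split were left out of the test. By edgeR's quasi-likelihood test with Benjamini-Hochberg adjustment over 7756 genes, 6.29% of genes were higher and 3.37% lower in the cells without UMIs, and 1 of 7 tested members was called. Eomes rose by 1.20 on the log2 scale (SE 0.19, adjusted p = 5.297e-05, edgeR) and was higher in 5 of 6 tumours. Ncr1 was 1.21 higher (SE 0.47, adjusted p = 0.1097, edgeR), higher in 4 of 6 tumours, with medians of 30.5 and 17.3 CPM and overlapping ranges, and did not pass. Leaving out a tumour moved that value to between 0.65 without EM2 and 1.52 without the parental tumour. Klrc1 differed by -0.51 (lower in 6 of 6 tumours, adjusted p = 0.076, edgeR), Klri2 by 0.69 (0.343), Klrk1 by 0.43 (0.298), Klrd1 by -0.35 (0.418) and Klre1 by 0.05 (0.968). Over all 6 tumours the cells without UMIs held 20 UMIs of Ncr1, 20 of Klre1, 19 of Klri2 and 44 of Klrd1. They held 86 of Klrk1, 115 of Klrc1 and 148 of Eomes. At counts this low a member that did not pass is not shown to be alike in both groups. Markers of other cells were higher in the cells without UMIs too, with 5 of 6 macrophage markers and 3 of 3 tumour cell markers called, beside 6.29% of all genes. Apoe, a macrophage marker, rose by 0.75 (adjusted p = 0.002752, edgeR) and Lyz2 by 0.675 (adjusted p = 0.01023, edgeR), each higher in 6 of 6 tumours, and Krt18, a tumour cell keratin, by 0.76 (adjusted p = 0.008531, edgeR), higher in 5 of 6. The cells without UMIs were also shallower, with medians per tumour of 672 to 1434.5 UMIs against 1153 to 2138. The part of these markers and of depth in the call was not tested.

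In the annotated NK cells of the CD45 libraries, 80.6% held a UMI of 1 of those 6 genes, and Trbc1 was at 1089 to 1437 CPM. A second split was therefore made on Cd3e, Cd3d, Cd3g and Trac alone, after the result of the first was known, and its calls differed. Of the T/NK cells, 1191 held no UMI of the 4 genes and 6842 held 2 or more. Ncr1 ranged from 87.8 to 163 CPM in the cells without UMIs, with a median of 126, and from 0 to 6.78 CPM in the cells with them. Eomes ranged from 281 to 862 CPM and from 42.4 to 148 CPM. Neither gene's ranges overlapped.

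By edgeR's quasi-likelihood test with Benjamini-Hochberg adjustment over 7960 genes, 7.31% of genes were higher and 5.95% lower in the cells without CD3 or Trac UMIs. Of the 7 members tested, Eomes and Klrk1 were counted as called higher, each in 6 of 6 tumours. Ncr1, Klri2 and Klre1 passed the filter on low counts through the group where they were high, so their calls are not counted. Their lowest values were 0, 0 and 3.03 CPM in the cells with UMIs. In the cells without UMIs the lowest were 87.8, 41.5 and 57.1 CPM. The differences of Ncr1 (5.05 on the log2 scale, SE 0.30), Klri2 (2.36) and Klre1 (1.495) are given as a description. Eomes rose by 2.503 on the log2 scale (SE 0.13, adjusted p = 6.142e-09, edgeR). Klrk1 rose by 0.87 (adjusted p = 0.0006126, edgeR). Klrd1 differed by 0.39 (95% interval -0.01 to 0.78, adjusted p = 0.260, edgeR) and Klrc1 by 0.13 (-0.20 to 0.46, adjusted p = 0.717, edgeR), and neither passed. Without pairing by tumour the log2 fold change of Klrk1 was 0.86 (adjusted p = 0.0671, edgeR), and it lost the call. That of Klre1 was 1.32. These groups of cells were formed from expression of the same cells. The cells without UMIs were shallower, with medians per tumour of 858.5 to 1971 UMIs against 1186 to 2138, and their part in the calls was not tested. In this split C1qa, a macrophage marker, differed by 0.05 (adjusted p = 0.8936, edgeR), Apoe by 0.11 (0.6194) and Krt18 by 0.30 (0.2777), and these did not pass. H2-Ab1, an MHC class II gene of antigen-presenting cells, rose by 0.61 (adjusted p = 0.001306, edgeR), higher in 6 of 6 tumours, and its part in the calls was not tested.

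**Figure D5:**
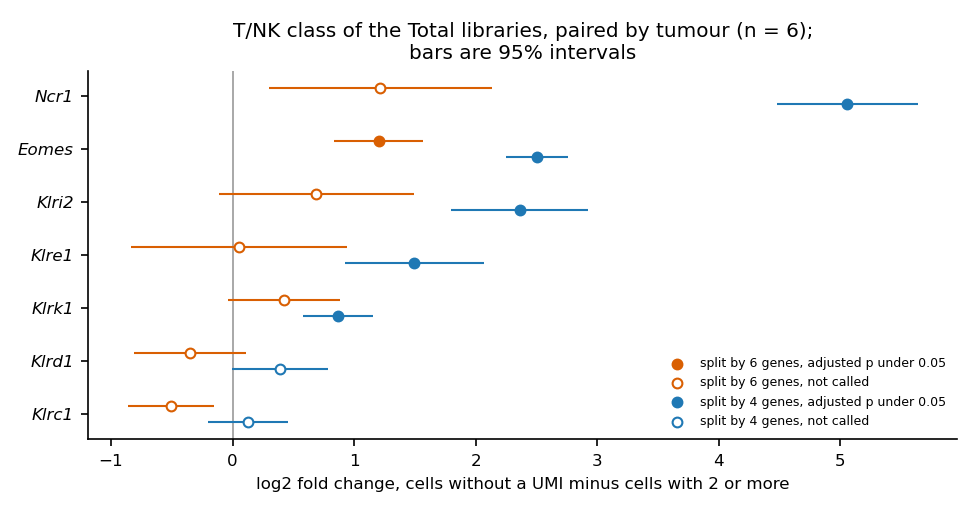
Log2 fold change of 7 members between T/NK cells of the Total libraries without and with 2 or more UMIs of the split genes, with 95% intervals (paired by tumour, n = 6); filled points had an adjusted p under 0.05. The split by 6 genes calls Eomes alone, and the split by 4 genes also calls Klrk1 (0.87). The points of Ncr1 (5.05), Klri2 (2.36) and Klre1 (1.495) in the split by 4 genes are not counted as calls. These members passed the filter on low counts through the group where they were high.

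The other genes of the pathway are counted beside all genes tested, of which 7.31% were higher and 5.95% lower in the second split and 6.29% and 3.37% in the first. In the second split, of 14 other NK genes tested, 10 rose in the cells without CD3 or Trac UMIs, among them Itga2, Txk and Xcl1, and Cd27 and Cd96 fell. Of 9 transcription factors, Tbx21, Nfil3 and Id2 rose and Ikzf2, Prdm1, Tcf7 and Lef1 fell. Of 4 adaptors, Tyrobp and Fcer1g rose and Cd247, the zeta chain of the T cell receptor complex, fell. In the first split the counts were 3 up and 3 down of 13 other NK genes, 1 up and 2 down of 9 transcription factors, and the same adaptors as in the second. Of 7 residency genes Itga1 rose and Cxcr6 and Il7r fell in the second split, and Cxcr6 fell in the first. Of the relatives of CD94 and NKG2, Klrg1 rose in the second split by 0.73 (adjusted p = 0.03001, edgeR). Klri1 was tested in that split alone, at 20.3 to 107 CPM in the cells without UMIs and 0 to 5.73 CPM in the others. In the first, Klrc3 differed by -0.56 (adjusted p = 0.2585, edgeR) and Klrg1 by -0.17 (0.7843), and neither passed. Klrb1b, of the NKR-P1 genes, was likewise tested in the second split alone, at 27.7 to 120 CPM against 0 to 5.69 CPM. Like Ncr1, Klri1 and Klrb1b passed the filter on low counts through the group where they were high, so their calls are not counted. Whether other genes counted here passed in that way was not computed. Klra5, the 1 Ly49 gene tested there, differed by 0.40 (adjusted p = 0.4905, edgeR) and did not pass, and the first split tested no gene of either family. Of 7 ligand genes, Clec2i rose in the second split, and in the first the lowest adjusted p was that of Pvr (0.05572, edgeR).

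Ligands of the members were read in the tumour cells of the Total libraries. Of 18 ligand genes in the list, 13 were measured and 5 reached a mean of 20 CPM. H2-K1, a classical MHC class I gene and a ligand of inhibitory Ly49 receptors, ranged from 484 CPM in M to 1099 CPM in EM1, and H2-D1 from 221 CPM in M to 594 CPM in EM1. Ulbp1, a ligand of NKG2D, ranged from 14.0 CPM in EM1 to 41.5 CPM in EM2. These 3 of 5 had a ratio of at least 2 between tumours on CPM + 10, beside 21.2% of all genes tested. Pvr and Nectin2, ligands of other NK receptors, ranged from 141 to 216 CPM and from 73.3 to 132 CPM. The other NKG2D ligands that were measured were scarce: Raet1d reached 2.24 CPM, Raet1e 5.52 CPM, H60b 7.85 CPM and H60c 0.191 CPM. The listed genes Raet1a, Raet1b, Raet1c, H60a and H2-L were not measured, so the level of NKG2D ligands as a group cannot be read here. H2-T23, which encodes the Qa-1 ligand of Klrd1 and Klrc1, reached 9.19 CPM.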

How the data were processed

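Single-cell RNA was measured in 12 libraries of 6 tumours. Per the labels' protocols a fixed-RNA kit was named alongside 3′ reagents, and Cell Ranger and mm10 are named in the submitters' processing notes. The authors deposited whole-number UMI counts for each gene and cell, filtered with limits not given in the sources used here. Annotation columns were also deposited by the authors. Doublets were called per library with the Scrublet method in scanpy 1.11.5 (expected share 6%) and 965 of 54955 CD45 cells (1.76%) were left out. Counts were summed per class and tumour and scaled to CPM, and log2 values used a pseudocount of 10 CPM. Genes at 20 CPM or more in either class formed the background. Intervals are exact Poisson or Clopper-Pearson intervals at 95% and, like the floor of 3 counts, cover counting error only.

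The members, lists and motifs were chosen with earlier results of these data known. The genes named are the 10 members, examples from lists of related genes counted in full, and the 5 genes most alike. Named besides, after their values were seen, are examples from the marker lists of NK and other cells and leading genes of the cells that the finer column alone calls NK. Both tests in the Total libraries were chosen after seeing the data, used edgeR 4.0.16 (R 4.3.3) with the tumour as a block, and were tested on simulated data. The tumour pairs the sums because both come from the same library. DESeq2 1.42.0 was an alternative. Nothing in the labels gives more than 1 mouse per group, so p-values measure the spread over 6 tumours, 5 of different clones and 1 of the parental line. Figures were drawn with matplotlib 3.10.9.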

Additional observations from a re-analysis of the deposited data

Results flagged for a closer look

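Among 38 groups of 6 tumours (a member in a T subtype or NK cells), 9 held a tumour far from the other 5. Chance gives about 1 in 20 for continuous values, a rate that does not hold for counts this sparse. In Gzmb+ Cd8+ T cells the parental tumour, with 8 cells, stood apart for Klrk1 (727.9 CPM), Klrc1 (1860 CPM) and Klrd1 (808.8 CPM). Klri2 was at 25.86 CPM in Lef1+ Cd8+ T cells of EM2, above the next tumour at 8.44 CPM. Eomes was at 53.12 CPM in Cd44+ Cd4+ T cells of M, above the next at 10.5 CPM. In Cd44- Cd4+ T cells, Klrd1 was at 120.9 CPM in M, from 43 cells, and Klri2 at 0.6752 CPM in EM1, from 1 UMI, and at 0 in the other tumours. In Foxp3+ Cd4+ T cells, Ncr1 was at 5.628 CPM in E and at 0 in the other tumours, and Klrc1 at 50.82 CPM in EM1.

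The cells called NK in the finer column only entered none of the comparisons with T subtypes and held Klrk1 and Klrd1 above the level of granulocytes. Over the 6 tumours Klrk1 was at 254.3 CPM (granulocytes 2.09), Klrd1 at 237.6 CPM (granulocytes 2.02) and Eomes at 6.252 CPM (95% Poisson interval 2.29 to 13.6, granulocytes 1.52). The Eomes value rests on 6 UMIs in 3 of 317 cells, with 4 of 6 tumours at 0, and dendritic cells had a median of 5.90 CPM.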

How the results depend on the processing

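The mean member differences, NK minus T, kept their sign under every alternative run. For Gzmb+ Cd8+ T, Lef1+ Cd8+ T, Cd44+ Cd4+ T, Cd44- Cd4+ T and Foxp3+ Cd4+ T cells in turn, the means were 0.31, 0.92, 2.60, 2.32 and 3.17 with NK cells from the finer column, 1.58, 2.17, 4.61, 4.31 and 5.74 with a pseudocount of 1 CPM, and 0.59, 1.06, 2.10, 1.95 and 2.34 with a pseudocount of 50 CPM. Leaving out a tumour in turn gave 0.94 to 1.10 for Gzmb+ Cd8+ T cells. The M minus E member difference became 0.17 with the finer column. Klrd1 in cells named NK in the finer column only, minus NK, was -0.13 (without M) to 0.27 when a tumour was left out. Klrk1 in NK minus Gzmb+ Cd8+ T cells became 0.17 without the parental tumour (-0.32 without M), and Klrc1 in NK minus Lef1+ Cd8+ T cells became -0.84 with the finer column.

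Shares of NK cells moved with depth. Unthinned they were 20% for Ncr1, 19.2% for Klre1, 11.9% for Klri2, 35.4% for Klrk1, 53.9% for Klrc1, 29.7% for Klrd1 and 60.4% for Eomes. Thinned to 500 UMIs they were 5.66% for Ncr1, 6.87% for Klre1, 14.7% for Klrk1, 29.9% for Klrc1, 12.9% for Klrd1 and 39.8% for Eomes. With the finer column they were 8.05% for Ncr1, 6.56% for Klre1, 4.47% for Klri2, 25.0% for Klrc1 and 29.1% for Eomes.

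In the Total libraries, both tests without the replicate block (pairing by tumour) called fewer genes: 213 higher and 107 lower in place of 488 and 261 for the split by 6 genes, and 272 and 240 in place of 582 and 474 for the split by 4 genes. Without a filter on low counts the balance turned to lower, with 408 higher and 544 lower for the 6 genes and 661 and 835 for the 4 genes. DESeq2 called 141 lower for the 6 genes. Leaving out a tumour gave 158 (without E) to 282 lower for the 6 genes, with 173 without EM1. In the split by 6 genes Klre1 changed sign, to -0.055 without the block, -0.11 without the filter, -0.23 without E, -0.48 without EM2 and -0.19 with DESeq2, and in that by 4 genes Klrc1 changed to -0.050 without the parental tumour, with 0.227 without E. In the split by 6 genes Klrk1 passed without M (adjusted p = 0.0433, edgeR) and Klrc1 without the filter (adjusted p = 0.0142, edgeR). The cause was not tested in any of these. The summed level of Klra4 and Klra8 could not be formed, since Klra4 was not analysed and Klra8 was at 0. Of the 5 genes most like the members, 3 were again among the first 5 with class sums of at least 50 cells.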

Other observations

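In the Total libraries, Siglech and Spib, 2 of the genes that led the cells called NK in the finer column only, were found in the authors' B class. Siglech was at 375 to 1642 CPM there, against 0 to 13.7 CPM in dendritic cells and 0 to 2.05 CPM in T/NK cells, and Spib at 824 to 1686 CPM, against at most 20.01 CPM in dendritic cells and 2.43 CPM in T/NK cells. Klra17 was at 7.34 to 55.5 CPM in the same class.

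A further 56 cells of the CD45 libraries were called NK cells by the authors' deposited reference labels and placed elsewhere in both annotation columns. Of these, 21 were Gzmb+ Cd8+ T cells and 20 were Lef1+ Cd8+ T cells, and 55 of the 56 were T in the broader column.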
